A study of Mus musculus with 10 samples.

Results

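Bile acid synthesis and transport were followed through 10 genes in the livers of 10 mice: the enzymes Cyp7a1, Cyp7b1, Cyp8b1 and Cyp27a1, the nuclear receptors Nr1h4 and Nr0b2, the membrane transporters Slc10a1, Abcb11 and Slco1b2, and the conjugating enzyme Baat. They were chosen by name from the 19271 genes of the expression table, with all transcripts of a gene added together. The members, and the gene lists used below, were chosen with earlier results of these data known, so their counts are not those of a blind choice. All 10 members were present and passed the filter on low counts. The mice differed in Htra2, which encodes HtrA2/Omi, a serine protease of mitochondria; S400D puts aspartate in the place of a serine. Of the males, 3 were WT/WT (wild type), 3 were S400D/WT (heterozygous) and 3 were S400D/S400D (homozygous). The remaining animal was a S400D/S400D female. All were of the strain C57BL6/N and 2 months old, and all libraries were made from poly(A) RNA of whole liver. No source used here gives how the allele was made, the litters or the hour of collection. Because the labels number the replicates without naming separate animals, p-values cover only the spread between these samples. The level of Htra2 RNA does not report a point mutation and so does not check the genotype labels.

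Hepatocytes make bile acids from cholesterol. In the classical route CYP7A1 adds the rate-limiting 7α-hydroxyl group, and CYP8B1 adds the 12α-hydroxyl group that makes cholic acid. In the alternative route CYP27A1, a mitochondrial enzyme, oxidises the side chain, and CYP7B1 7α-hydroxylates the oxysterols that result. BAAT joins the finished acids to taurine. NTCP (Slc10a1) and OATP1B2 (Slco1b2) take bile acids up from the blood, and the bile salt export pump (Abcb11) secretes them into bile. The bile acid receptor FXR (Nr1h4) drives Abcb11 and the corepressor SHP (Nr0b2), and SHP restrains Cyp7a1 and Cyp8b1.

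FXR binds an inverted repeat of AGGTCA half-sites spaced by a single base, AGGTCANTGACCT, so the promoters of the members were searched for it on both strands. RefSeq windows of build GRCm38.p6, from 250 bases before to 50 bases after a transcript start, were matched for 7 of the 10 members, in 8 windows. The exact repeat stood in 3 of all 32851 windows (0.00913%) and in none of the member windows. With at most 1 mismatch, a search chosen after the exact one was seen, it stood in 27 windows (0.0822%), among them those of Abcb11 and Slco1b2, both transporter genes. With at most 3 mismatches, also chosen after the exact search, the repeat stood in 11.4% of all windows. Those of Cyp8b1 and Slc10a1 were then among them, and that of Nr0b2 was not. The stretches of Abcb11 and Slco1b2 hold the closest matches to the repeat found in the member windows. They and a further match in Nr0b2, to another sequence, are printed 5′ to 3′ on the strand of the gene. Capitals mark the matched letters.
Abcb11: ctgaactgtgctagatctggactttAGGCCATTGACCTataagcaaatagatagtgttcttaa
Slco1b2: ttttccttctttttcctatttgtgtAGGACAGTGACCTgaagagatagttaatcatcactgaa
Nr0b2: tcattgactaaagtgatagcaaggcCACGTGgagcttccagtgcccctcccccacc
The Abcb11 stretch lies at chr2:69342642-69342704 on the minus strand, and its match begins 63 bases before the transcript start. It differs from the repeat by T4C, counted from 1 at the 5′ end of the repeat. The Slco1b2 stretch lies at chr6:141629405-141629467 on the plus strand, its match begins 88 bases before the start of the transcript the window was taken from, and it differs by T4A. That start lies inside the gene as annotated, and the printed stretch runs past the gene's first base. In both stretches the downstream half-site, TGACCT, is intact and the mismatch lies in the upstream one.

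The Nr0b2 stretch lies at chr4:133553156-133553211 on the plus strand and holds CACGTG, the E-box read by the clock factors BMAL1 and CLOCK, 195 bases before the start. This hexamer was in 7.15% of all windows and in 1 of the 8 member windows. The single half-site AGGTCA was in 16.3% of all windows and in 4 of the 8 member windows, those of Abcb11, Slco1b2, Nr1h4 and 1 of Slc10a1. In Abcb11 and Slco1b2 it is part of the repeat already shown. The extended half-site CAAGGTCA (1.56% of windows) and the D-box TTATGTAA (0.938%), which the clock factor DBP binds, were in no member window. These are letter matches in a fixed window, not measured binding.

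Each library held between 16240441 and 17264289 expected counts, so depth differed little between groups. Hepatocyte markers (Alb, Apoa1, Ttr, Serpina1c, Tat and Cps1) together took 79882 to 138372 CPM (counts scaled to a common library size) in every library. The markers of intestine, the other main site of bile acid transport, summed to 19.8 to 37.7 CPM, and its defining genes Fgf15 and Fabp6 were at 0 in every library.

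The members spanned a wide range of abundance. On the length-scaled TPM scale, averaged over the 3 wild-type males with SD, Slc10a1 was the highest member at 752 ± 122 and ranked 178 of 16601 genes above 0. Cyp27a1 followed at 410 ± 46.2 TPM and Slco1b2 at 396 ± 56.7 TPM, and their libraries overlapped. Abcb11 (216 ± 23.9 TPM), Baat (199.6 ± 10.2 TPM) and Cyp8b1 (192 ± 37.5 TPM) formed a second overlapping set below them. Nr1h4 reached 104 ± 15.3 TPM and Cyp7b1 102 ± 66.4 TPM, again with overlapping libraries. Nr0b2 was at 40.5 ± 14.5 TPM. Cyp7a1, the rate-limiting enzyme of the classical route, was the lowest member at 23.5 ± 16.0 TPM and ranked 3133. The libraries of neighbours in this order overlapped except at 3 steps: between Slc10a1 and Cyp27a1, between Slco1b2 and Abcb11, and between Cyp8b1 and Nr1h4.

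**Figure D1:**
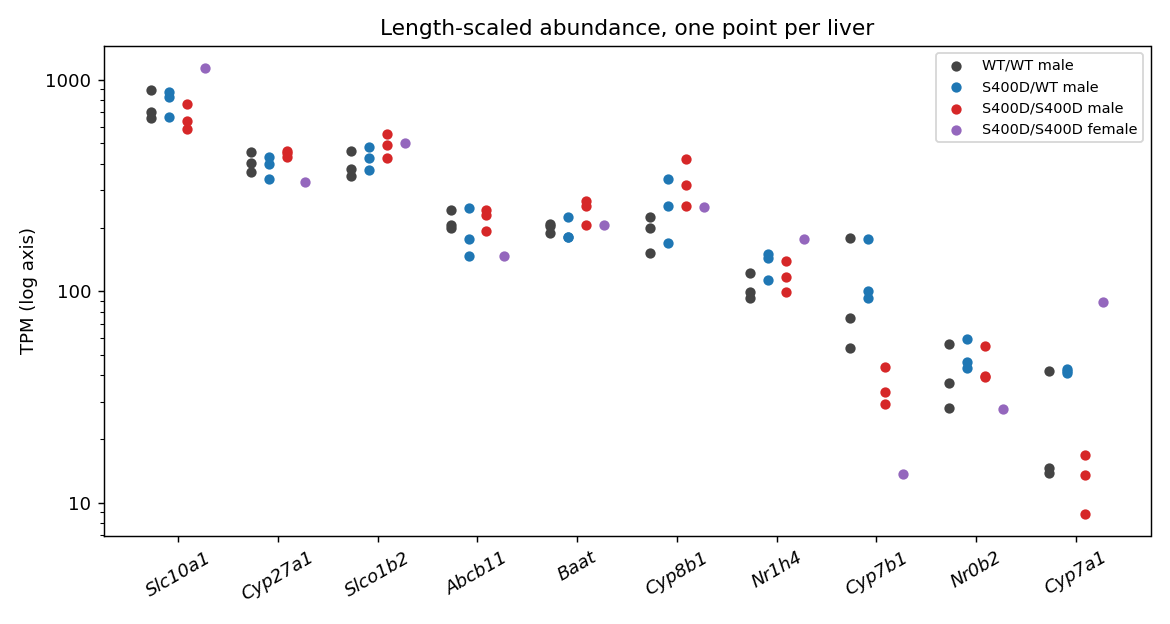
TPM on a log axis for each bile acid gene, with 1 point per liver coloured by genotype and sex and genes ordered by their mean in wild-type males. Slc10a1 is highest at 752 TPM in wild-type males, while the points of Cyp7b1 and Cyp7a1 are the most scattered and span 13.6 to 178 TPM and 8.89 to 89.0 TPM over the 10 livers.

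In homozygous males the 7α-hydroxylases of both routes, Cyp7a1 and Cyp7b1, had lower mean levels than in the other males, and the remaining 8 members differed by 0.60 or less on the log2 scale from wild type. Differences are given as log2 fold changes of CPM, negative where the first group named is lower. With the quasi-likelihood test of edgeR and adjustment over 12427 genes, 0 of the 10 members passed an adjusted p of 0.05 in homozygous against wild-type males, where 0% of all genes did. At an unadjusted p under 0.05 there were 2 members, Cyp7a1 and Cyp7b1, both lower, beside 14.9% of all genes (8.08% lower). DESeq2 called 1 member, Cyp7b1, and 2.38% of its genes, and limma-voom called 0 members and 0% of genes. The groups did not overlap for 1 member (Cyp7b1), against 20.8% of all genes (11.5% lower). The members' counts are near these shares. The median log2 fold change of the members was -0.03, beside 0.00 for all genes tested.

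Between homozygous and heterozygous males, edgeR again called 0 of 10 members and 0% of genes. Cyp7a1 and Cyp7b1 were the 2 members at an unadjusted p under 0.05, beside 17.2% of all genes (8.92% lower). They were also the 2 members without overlap, both lower in homozygotes, beside 22.4% of all genes (11.7% lower). DESeq2 called both, with 4.66% of its genes, and limma-voom called neither. Between heterozygous and wild-type males edgeR called 0 members and 0% of genes. No member was at an unadjusted p under 0.05, where 4.19% of genes were, and none was without overlap, where 10.4% of genes were. DESeq2 called 0 members there and 0.0364% of its genes. The 3 comparisons share their groups and are not independent.

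**Figure D2:**
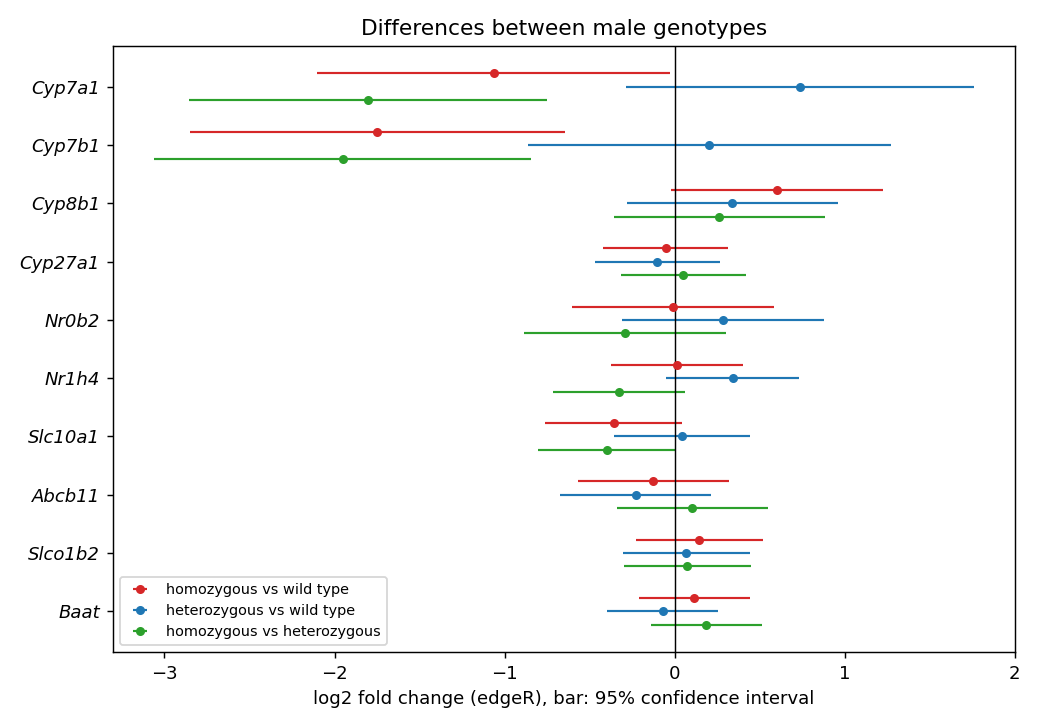
Log2 fold change of each member on the x axis for the 3 comparisons between male genotypes, fitted with edgeR over 9 males, with bars for the 95% confidence interval. The intervals of Cyp7a1 and Cyp7b1 lie below 0 in both comparisons with homozygous males (for Cyp7b1 against wild type, -2.85 to -0.65), whereas those of the other 8 members reach or cross 0.

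Cyp7a1 lies on chromosome 4 (6265612 to 6275632, GRCm38.p6). Its levels were 40.8, 139.6 and 40.4 CPM in the wild-type males, 129.5, 121 and 118 CPM in the heterozygotes, and 35.3, 23.2 and 46.9 CPM in the homozygous males. The 3 heterozygotes were therefore close together and at the level of the single high wild-type male, while the homozygotes lay near the 2 low wild-type males and overlapped them. Over all 10 livers the values split into 5 low and 5 high, with a gap of 1.32 on the log2 scale between them. The group means ± SD (n = 3) were 73.6 ± 57.1, 123 ± 6.21 and 35.1 ± 11.8 CPM. The log2 fold change of homozygotes was -1.06 against wild type (SE 0.46, edgeR adjusted p = 0.327), and -1.80 against heterozygotes (SE 0.47, edgeR adjusted p = 0.135). Heterozygotes differed from wild type by 0.74 (SE 0.45, edgeR adjusted p = 0.972). The comparison with wild type rested on wild-type male 2: without that library the homozygous difference was -0.21 (adjusted p = 0.812 with edgeR) and the heterozygous one 1.59. DESeq2 gave an adjusted p of 0.00348 for homozygotes against heterozygotes and 0.197 against wild type.

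Cyp7b1, on chromosome 3 (18071944 to 18243890), was lower in every homozygous male than in any other male. It was at 102, 287 and 76.7 CPM in the wild-type males, 271, 141 and 123 CPM in the heterozygotes, and 55.8, 42.4 and 40.0 CPM in the homozygous males. The lowest of the 6 other males, wild-type male 3, was still above the highest homozygote. The means ± SD (n = 3) were 155 ± 115, 179 ± 80.8 and 46.1 ± 8.52 CPM. The homozygotes differed by -1.75 (SE 0.49) from wild type and by -1.95 (SE 0.49) from heterozygotes, with edgeR adjusted p of 0.209 and 0.125. DESeq2 gave 0.0117 and 0.00196 for the same comparisons, so whether the difference passes depends on the tool. Without wild-type male 2, the highest of all libraries, the difference from wild type was -0.95 with an edgeR adjusted p of 0.552. Heterozygotes and wild type differed by 0.20 (SE 0.47), with a 95% interval of -0.86 to 1.27.

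**Figure D3:**
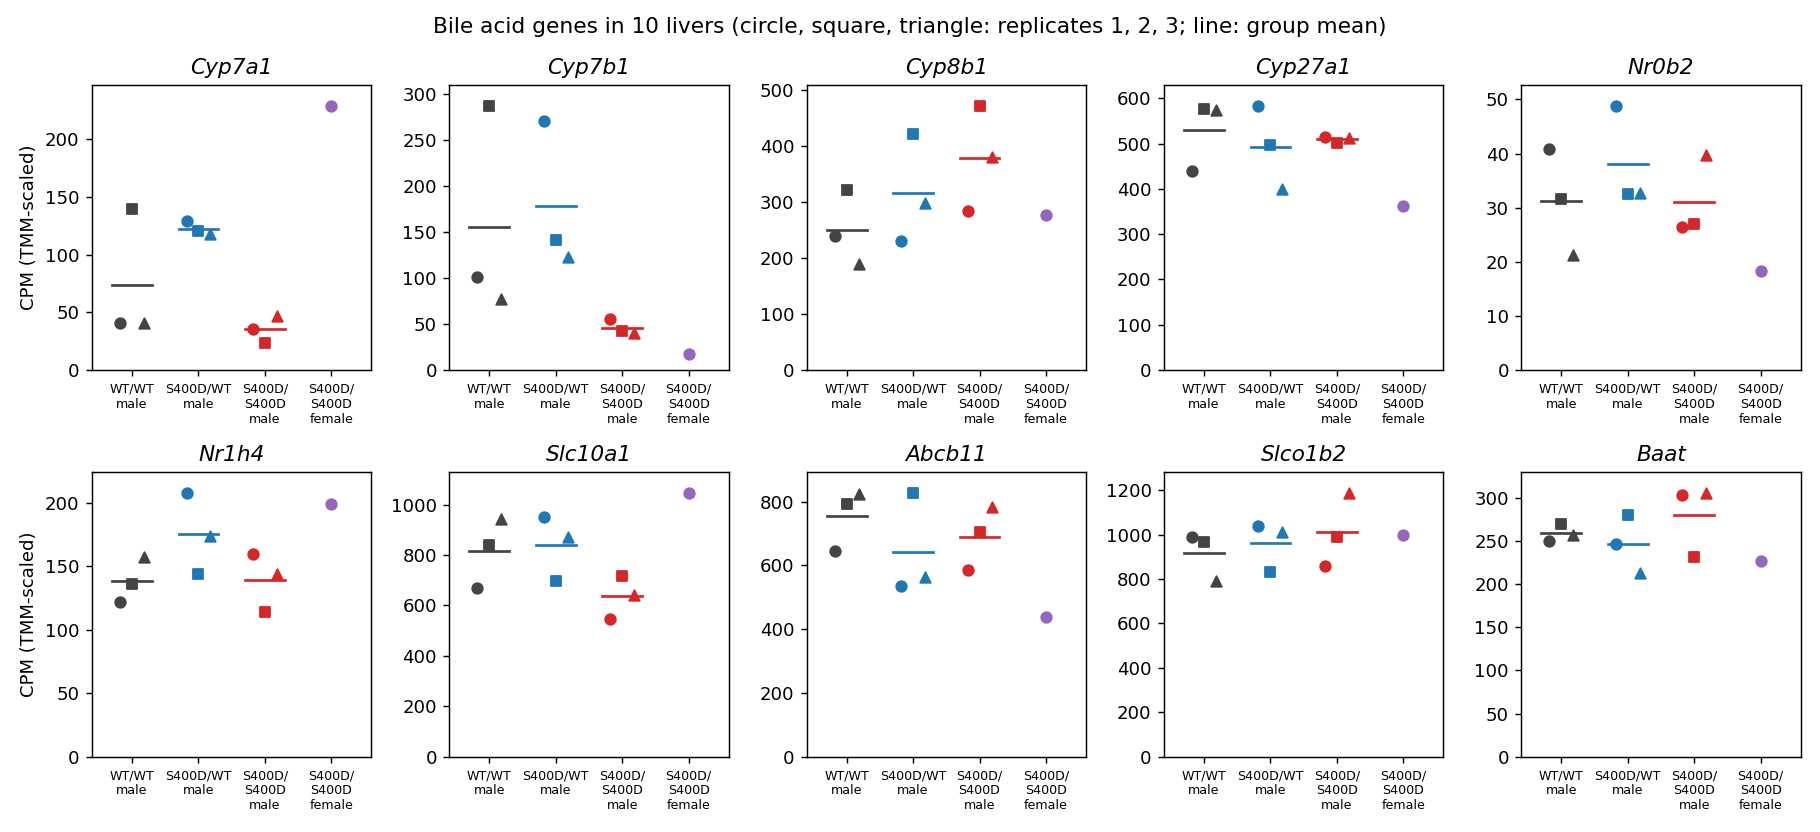
CPM scaled with TMM factors for each member, 1 panel per gene, with 1 point per liver by genotype and sex and a line at the group mean. In the Cyp7b1 panel the 3 homozygous males (40.0 to 55.8 CPM) lie below every other male, and in the Cyp7a1 panel the 3 heterozygotes cluster between 118 and 129.5 CPM.

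Cyp8b1, the 12α-hydroxylase on chromosome 9 (121914356 to 121916305), had its highest mean in homozygous males. It was at 239.9, 321 and 189.6 CPM in wild-type males, 229, 421 and 298 CPM in heterozygotes, and 284, 471 and 381 CPM in homozygous males. The groups overlapped on this scale, with homozygous male 1 below wild-type male 2. On the TPM scale the homozygotes (253, 420.02 and 318) lay above the wild-type males (199, 225 and 151), so the overlap depends on the scaling. The difference from wild type was 0.60 (SE 0.28, 95% interval -0.02 to 1.22) with an edgeR adjusted p of 0.349.

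Cyp27a1, the first enzyme of the alternative route, on chromosome 1 (74713148 to 74737897), was the steadiest member among homozygotes. It was at 439, 576 and 573 CPM in wild-type males, 583, 496 and 399 CPM in heterozygotes, and 515, 502 and 513 CPM in homozygous males. The homozygous values lay inside the wild-type range. The difference from wild type was -0.05 with a 95% interval of -0.42 to 0.31, and its sign changed with the scaling.

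Because the enzymes act in sequence, their TPM ratios were also taken in each liver, as a description. Cyp27a1 exceeded Cyp7b1 by 10.5, 13.5 and 14.6 times in the homozygous males, by 2.44, 3.99 and 3.66 times in heterozygotes and by 4.89, 2.28 and 8.48 times in wild-type males. The 3 homozygous ratios lay above all others among the males, while Cyp27a1 itself overlapped between the groups. The ratio of Cyp8b1 to Cyp7a1 was 18.7, 47.2 and 18.9 in homozygous males, 4.11, 8.10 and 5.89 in heterozygotes, and 13.7, 5.35 and 10.9 in wild-type males. Among the males it too was highest in the homozygotes without overlap, whereas the homozygous female had the lowest ratio of all 10 livers, 2.81.

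The receptors showed no such separation. Nr1h4, the gene of FXR, on chromosome 10 (89454234 to 89533645), was at 122, 136 and 157 CPM in wild-type males, 208, 144 and 174 CPM in heterozygotes, and 160.2, 114 and 144 CPM in homozygous males. All 3 groups overlapped. The homozygous difference from wild type was 0.01 with a 95% interval of -0.38 to 0.40, and the heterozygous one 0.34 (SE 0.17, edgeR adjusted p = 0.972).

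Nr0b2, the FXR target that encodes SHP, on chromosome 4 (133553376 to 133556686), was at 40.9, 31.6 and 21.3 CPM in wild-type males, 48.8, 32.5 and 32.8 CPM in heterozygotes, and 26.5, 26.9 and 39.7 CPM in homozygous males. The ranges overlapped in every pair of groups. The difference of homozygotes from wild type was -0.01 with an interval of -0.60 to 0.59, wider than that of Nr1h4.

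Among the uptake carriers, Slc10a1 on chromosome 12 (80953185 to 80968705) was at 669.8, 841 and 941 CPM in wild-type males, 953, 697 and 872 CPM in heterozygotes, and 548, 718 and 643 CPM in homozygous males. The homozygous mean (636 ± 85.1 CPM) was the lowest of the 3, but homozygous male 2 overlapped both other groups. The difference was -0.36 (SE 0.18) from wild type and -0.40 (SE 0.18) from heterozygotes, with edgeR adjusted p of 0.379 and 0.294. Slco1b2 on chromosome 6 (141629452 to 141686646) was at 990.4, 967 and 792 CPM in wild-type males, 1037, 831 and 1013 CPM in heterozygotes, and 858, 987 and 1188 CPM in homozygous males. Its groups overlapped, and the homozygous difference from wild type was 0.14 with an interval of -0.23 to 0.52.

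The export pump Abcb11, on chromosome 2 (69238282 to 69342616), was at 646, 794 and 824 CPM in wild-type males, 536, 828 and 564 CPM in heterozygotes, and 586, 704 and 783 CPM in homozygous males. These ranges overlapped, and the homozygous difference from wild type was -0.12 with an interval of -0.57 to 0.32. Baat, on chromosome 4 (49489416 to 49507915), was at 250.4, 269.5 and 257 CPM in wild-type males, 246, 280.2 and 213 CPM in heterozygotes, and 303, 232 and 306 CPM in homozygous males. The homozygous difference was 0.12, with an interval of -0.21 to 0.44.

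The members also differed in how much replicates of 1 genotype varied. The pooled within-genotype SD of log2 CPM over the 9 males was 0.69 for Cyp7b1 and 0.66 for Cyp7a1, above 96.7% and 96.3% of the 12427 genes tested. Cyp8b1 (0.40) and Nr0b2 (0.38) were above 82.6% and 80.9%. The other 6 members had SDs between 0.18 (Baat) and 0.26 (Abcb11), above 41.2% and 62.7% of genes. For Cyp7a1 the highest wild-type library exceeded the lowest 3.45-fold, against 1.10-fold in heterozygotes and 2.02-fold in homozygotes.

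The homozygous female carried the highest Cyp7a1 of any liver, 229 CPM, and the lowest Cyp7b1, 17.0 CPM. Against the 3 homozygous males Cyp7a1 differed by 2.70 (SE 0.58, edgeR adjusted p = 0.305) and Cyp7b1 by -1.44 (SE 0.75, edgeR adjusted p = 0.553), so these genes, which were both low in homozygous males, parted in the female. The ratio of Cyp7a1 to Cyp7b1 in TPM was 6.53 in the female and 0.195 to 0.572 in the 9 males. This fit holds all 10 libraries, and a single female has no spread of its own, so that of the males stands in for it. Sex and the individual animal cannot be told apart. Other gene sets differed in the female too: of 11 clock genes 8 were higher and 3 lower than in homozygous males, with a list median of 1.65 (Dbp was at 205 CPM). All 6 hepatocyte markers were lower in the female, with a median of -0.31 and a sum of 107740 CPM against 113730 to 138372 CPM. Lower too were 5 of 6 endothelial, 5 of 6 stellate and 5 of 8 Kupffer cell markers. Their part in the female's differences was not tested.

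By the edgeR test 0 of 10 members passed in the female, beside 0.0772% of 12954 genes. At an unadjusted p under 0.05 there were 3 members, Cyp7a1 and Slc10a1 higher and Abcb11 lower, beside 10.3% of genes (5.21% higher and 5.13% lower). DESeq2 called 1 member, Cyp7a1 (adjusted p = 0.00313), with 0.838% of its genes, and limma-voom called 0 members with 0.116%. Without wild-type male 2, edgeR gave the same Cyp7a1 difference of 2.70 an adjusted p of 0.0144. The female lay outside the range of the homozygous males for 9 of 10 members, all but Slco1b2, with 3 above and 6 below. Of all genes 54.4% lay outside, 27.3% above and 27.1% below.

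Among the transporters, the female had 1047 CPM of Slc10a1, above every male, with a difference of 0.72 (SE 0.24). Abcb11 at 439 CPM was below every male, with a difference of -0.65 (SE 0.29). Cyp27a1 (361 CPM) and Nr0b2 (18.3 CPM) were also lowest in the female, while Nr1h4 (199 CPM) was exceeded only by heterozygous male 1. Cyp8b1 (276 CPM), Slco1b2 (996 CPM) and Baat (227 CPM) lay within the range of the 9 males.

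Cyp7a1 and several of its regulators are rhythmic genes, and genes of the circadian clock differed between the same libraries. Dbp, a clock output factor that activates Cyp7a1, was at 128, 148 and 158 CPM in wild-type males, 247, 6.02 and 105 CPM in heterozygotes, and 4.63, 12.9 and 1.27 CPM in homozygous males. It was at 205 CPM in the female. Arntl, which encodes the clock factor BMAL1 and peaks in antiphase to Dbp, was at 2.64, 2.45 and 4.25 CPM in wild-type males, 1.17, 31.5 and 2.59 CPM in heterozygotes, 17.4, 26.1 and 38.1 CPM in homozygous males and 1.59 CPM in the female. Homozygous males were thus low in Dbp and high in Arntl, and heterozygous male 2 shared that pattern.

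Of 11 clock genes, 9 were at an unadjusted p under 0.05 between homozygous and wild-type males, 6 lower and 3 higher. Of all genes 14.9% were at that threshold, and 0 of the 11 passed an adjusted p of 0.05 with edgeR. The median log2 fold change of the list was -1.01, beside 0.00 for all genes. Against heterozygotes 5 of 11 were at an unadjusted p under 0.05, 4 lower and 1 higher, beside 17.2% of all genes. Heterozygous male 2, with Dbp at 6.02 CPM, had 121 CPM of Cyp7a1 and 141 CPM of Cyp7b1, between the other 2 heterozygotes for both genes. Wild-type males 1 and 3, with Dbp above 128 CPM, had Cyp7a1 at 40.8 and 40.4 CPM, within the homozygous range. The part of clock phase in the differences of the members was not tested.

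**Figure D4:**
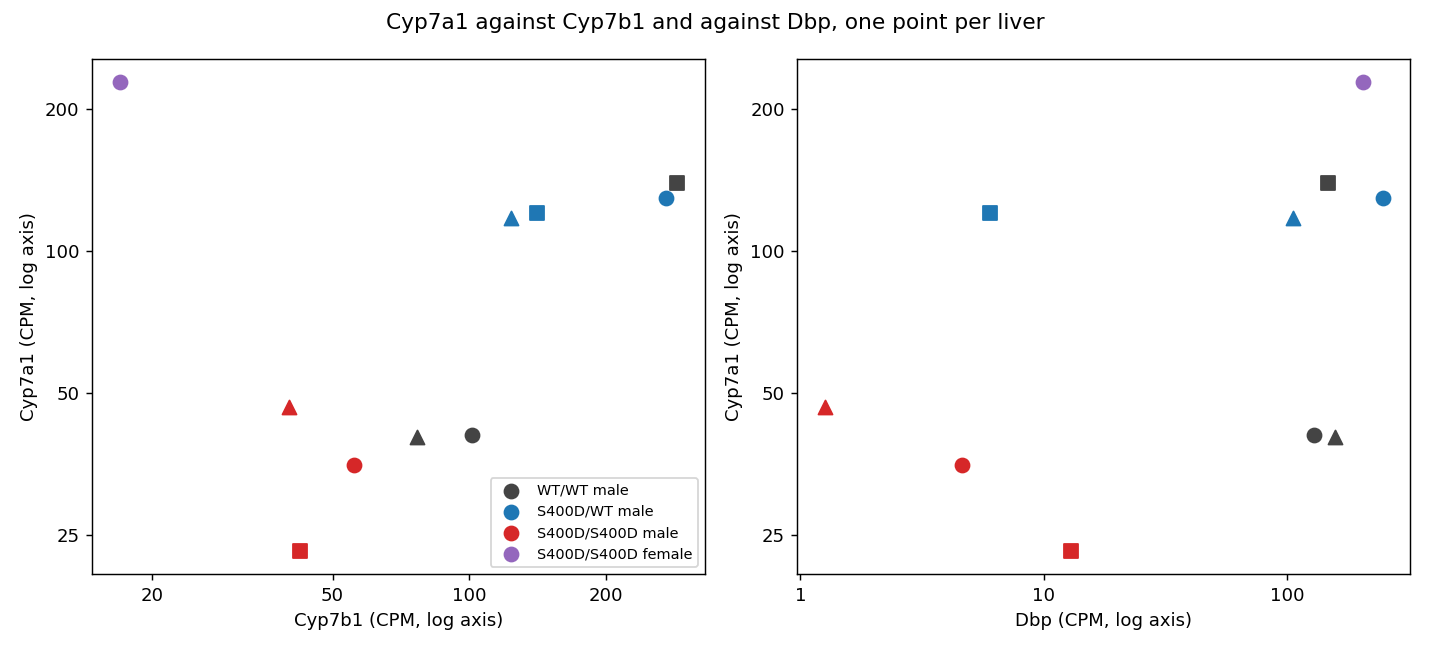
Cyp7a1 against Cyp7b1 (left) and against Dbp (right), both axes in CPM on log scales, with 1 point per liver coloured by genotype and sex and shaped by replicate number. The homozygous males lie at low Cyp7a1, Cyp7b1 and Dbp, the female combines the highest Cyp7a1 (229 CPM) with the lowest Cyp7b1 (17.0 CPM), and heterozygous male 2 combines Dbp at 6.02 CPM with Cyp7a1 at 121 CPM.

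Markers of other liver cells also differed between these libraries. All 8 Kupffer cell markers and all 6 sinusoidal endothelium markers had positive log2 fold changes in homozygous against wild-type males, and 5 of 6 stellate cell markers did. In heterozygous against wild-type males all 8, all 6 and all 6 were positive, so these signs were not particular to homozygotes. Summed Kupffer markers were 372 to 397 CPM in homozygous males and 128 to 439.5 CPM in wild-type males, where 1 library alone, wild-type male 1, was above the homozygotes. Wild-type males 2 and 3 were at 167 and 128 CPM, and the heterozygotes at 168 to 415 CPM. Endothelial markers summed to 173 to 182 CPM in homozygous against 73.4 to 187 CPM in wild-type males, and stellate markers to 217 to 385 CPM against 96.0 to 255 CPM. In heterozygotes these sums were 106 to 168 CPM and 193 to 309 CPM. Of 6 hepatocyte markers 3 were higher and 3 lower. Their sum was 113730 to 138372 CPM against 101040 to 115671 CPM, and 79882 to 103572 CPM in heterozygotes. Alb, the most abundant of them, differed by 0.36 (SE 0.25) from wild type. Cholangiocyte markers summed to 40.0 to 64.3 CPM against 57.2 to 64.4 CPM. In whole liver, the number of hepatocytes and the RNA per hepatocyte cannot be told apart. The part of cell composition in the members' differences was not tested.

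The wider pathway was read from lists of 19 other synthesis genes, 16 other transporters and 18 regulators, of which 18, 14 and 16 were tested. With edgeR, 0 genes of these lists passed in any of the 4 comparisons. In homozygous against wild-type males the synthesis list had 1 gene higher and 3 lower at an unadjusted p under 0.05, with a median of -0.26. That is 4 of 18 genes, where 14.9% of all genes tested passed this threshold. Cyp39a1, which 7α-hydroxylates 24-hydroxycholesterol and so shares its reaction type with Cyp7b1, was the higher one. It was at 23.3, 35.6 and 61.2 CPM in wild-type males, 26.4, 29.6 and 22.9 CPM in heterozygotes, and 285, 62.7 and 127 CPM in homozygous males. All homozygous values lay above all others among the males, with a difference from wild type of 1.99 (SE 0.52, edgeR adjusted p = 0.206).

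The 3 lower genes, named after their values were seen, were Cyp46a1, which makes 24-hydroxycholesterol, and Fdx1 and Fdxr, which pass electrons to mitochondrial P450 enzymes such as CYP27A1. Fdxr was at 29.1, 26.8 and 28.3 CPM in wild-type males and 18.5, 21.7 and 16.7 CPM in homozygous males, a difference of -0.56 (SE 0.12). Fdx1 differed by -0.68 (SE 0.22) and Cyp46a1, at 1.09 CPM in homozygotes, by -1.36 (SE 0.51). None of the 3 overlapped wild type, beside 20.8% of all genes without overlap. Hsd3b7, Akr1d1, Cyp2c70, Slc27a5, Acox2, Amacr and Acot8, which act on the sterol ring, the side chain or conjugation, differed between -0.32 (Amacr) and 0.16 (Hsd3b7).

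Among the other transporters 2 were higher and 2 lower in homozygotes at an unadjusted p under 0.05, 4 of 14 beside the same 14.9% of all genes, with a list median of -0.01. Abcc3, the basolateral exporter MRP3, was at 323, 128 and 214 CPM in wild-type males and 335, 377 and 344 CPM in homozygous males, a difference of 0.67 (SE 0.28). Slco1a4, an organic anion uptake carrier, was at 86.0, 10.6 and 57.2 CPM in wild-type males and 137, 144 and 168 CPM in homozygous males, a difference of 1.55 (SE 0.55). Neither overlapped wild type, beside the same 20.8% of all genes, and edgeR adjusted p were 0.317 and 0.268. The 2 lower genes, named after their values were seen, were Abcg2 (-0.51) and Slc10a2 (-1.12), the bile acid uptake carrier best known from ileum and bile duct.

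Slco1a1, a carrier with male-biased expression in mouse liver, was at 368, 485 and 268 CPM in wild-type males and 591, 464 and 381 CPM in heterozygotes. It was at 51.9, 277 and 281 CPM in homozygous males and 19.2 CPM in the female. Homozygous and wild-type males overlapped, with a difference of -0.88 (SE 0.52, edgeR adjusted p = 0.455). The canalicular pumps Abcc2 and Abcb4 differed by -0.05 and 0.14, and Slc51b had at most 0.246 CPM in any library.

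Of the regulators, 2 were higher and 1 lower at an unadjusted p under 0.05, 3 of 16 beside 14.9% of all genes, with a median of 0.07. The lower one was Dbp (-4.52, SE 1.16). The higher ones, named after their values were seen, were Nr1i3, the xenobiotic receptor CAR (0.68, SE 0.19), and the coactivator Ppargc1a (0.54, SE 0.22). Against wild type, Hnf4a (0.07), Nr5a2 (0.06), Fgfr4 (0.09), Klb (0.28), Nr1i2 (-0.18) and the clock repressor Nr1d1 (-0.78) had edgeR adjusted p of 0.414 or more. These include the receptors through which intestinal FGF15 represses Cyp7a1. In heterozygous against wild-type males the synthesis, transport and regulator medians were -0.07, -0.05 and -0.13. At an unadjusted p under 0.05 were 0, 0 and 2 genes, beside 4.19% of all genes. Between homozygous and heterozygous males 4 of 16 regulators were higher and 1 lower at that threshold, beside 17.2% of all genes. Klb differed there by 0.55 (SE 0.15, edgeR adjusted p = 0.143) and Nr5a2 by 0.41 (SE 0.12, edgeR adjusted p = 0.162). Neither overlapped heterozygotes, beside 22.4% of all genes without overlap.

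The deposited table also divides most members into transcripts. Cyp7a1, Cyp8b1 and Nr0b2 had a single transcript each, and the main curated transcript of Cyp7b1 held 93.0% to 97.7% of its TPM in the 10 livers. Slco1b2 was carried almost wholly by 2 predicted transcripts, with 68.6% and 30.9% of its TPM in wild-type males, while its curated transcript held 0.451%. Nr1h4 was spread over 5 transcripts, the largest 3 with 29.0%, 31.5% and 28.8% in wild-type males. For Slc10a1 the main transcript held 82.5% ± 0.986 in wild-type males, 79.2% ± 3.42 in heterozygotes and 86.7% ± 2.34 in homozygous males (SD, n = 3), and no test was made on shares. Reads shared between transcripts were divided by the authors' program, so these shares are estimates.

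Correlations between members over the 10 livers were planned for 6 pairs known from regulation, on log2 CPM. No pooled value is given for the 2 pairs with Cyp7a1, since its levels form separate clusters. For Nr1h4 and its target Abcb11, r was -0.67 (permutation p = 0.0367, adjusted 0.22) and rho -0.64 (permutation p = 0.0547, adjusted 0.328). On log2(TPM + 1) r was -0.71, and over deviations from group means in the 9 males it was -0.42. Without the 2 livers farthest from the median of Nr1h4, heterozygous male 1 and the female, r was -0.26, so the relation rests on those livers. For Cyp7b1 and Cyp27a1 r was 0.55 (permutation p = 0.0985, adjusted 0.295) and rho 0.45. That r was 0.53 over deviations from group means in the 9 males, but 0.13 on log2(TPM + 1), with rho at -0.04, and 0.04 without the 2 farthest livers. The relation therefore does not hold across scalings. Nr0b2 had r of 0.07 with Cyp8b1 and -0.09 with Nr1h4, each with an adjusted permutation p of 0.948.

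For each member the 2 genes with the most similar pattern over the 10 livers were taken from 11259 genes, by Pearson's r of log2 CPM and with no test. For Cyp7a1 they were Nat9 and Arfrp1, with no r printed because its levels form separate clusters and the ranking rests on them. For Cyp7b1 they were Mup8 and Gps1 (0.97 each), and Mup8 belongs to a family of near-identical genes whose single values are uncertain. For Cyp8b1 they were Rab33b and Wrn, for Cyp27a1 Smad9 and Ptbp1, for Nr0b2 Rap2a and Zfp408, and for Nr1h4 Nfyc and Ss18. For Slc10a1 they were Timm17b and Pusl1, for Abcb11 Pde9a and Zmiz1, for Slco1b2 Gatc and Ptp4a2, and for Baat Gpkow and Herc2. Values of r for these ranged from 0.87 to 0.96.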

How the data were processed

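RNA of 10 livers was sequenced after oligo(dT) selection, per the labels' protocols. The authors deposited, for each of 77712 transcripts, expected counts (estimated reads, not normalised), FPKM values (scaled to length and library) and TPM values (scaled to a fixed sum). HISAT, Bowtie2 and the build GRCm38.p6 are named per the submitters' processing notes. No source used here gives the program that estimated the counts or its use of strand. Deposited expected counts were summed to 19271 genes (19214 matched to RefSeq) and rounded, 94.5% of nonzero sums being within 0.05 reads of a whole number already.

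edgeR 4.0.16 (R 4.3.3) was fitted with TMM factors, its filter on low counts by group and the quasi-likelihood test, with Benjamini-Hochberg adjustment at 0.05. The 9 males were fitted together by genotype, and all 10 libraries for the female. Fold changes are log2, and SE and 95% intervals come from the fit. CPM was scaled over the 10 libraries. The fits were also run on simulated counts with a single dispersion for all genes. That run does not show how they perform for genes as variable as Cyp7a1 and Cyp7b1. Alternatives were DESeq2 1.42.0, limma-voom (limma 3.58.1), other scalings and filters, limma on log2(FPKM + 1) or log2(FPKM + 0.1), a replicate block, other sets of libraries and leaving out each male. Correlations used 100000 resamples on log2(CPM + 0.5).

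The members and lists were chosen with earlier results of these data known. Named were all members, 21 pathway genes set by name, any called list gene, and the 2 genes most like each member with a mean of at least 1 CPM. Other genes were named after their values were seen. Promoter windows are from RefSeq. The search did not cover Cyp7a1, Cyp7b1 and Baat, for which no window was matched or used here.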

Additional observations from a re-analysis of the deposited data

How the results depend on the processing

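Over 18 to 20 alternatives for each result, the homozygous differences of Cyp7b1 stayed negative (-2.06 to -0.95 from wild type, -2.16 to -1.52 from heterozygotes), as did those of Cyp7a1 (-1.35 to -0.21 and -2.07 to -1.58). DESeq2 called 308 genes and 1 member in homozygous against wild-type males, 6 genes in heterozygous against wild-type males, 529 genes and 2 members in homozygous against heterozygous males, and 101 genes and 1 member in the female. For the female, 10 genes were called in the reported fit, 5 with at least 1 CPM in 3 libraries and 6 on log2(FPKM + 0.1). Leaving out 1 male gave 0 to 18 genes called in homozygous against wild-type males, with 18 without wild-type male 1 and 2 without homozygous male 2. It gave 0 to 6 in homozygous against heterozygous males, with 6 without homozygous male 2. For the female it gave 7 to 12 genes and 0 to 1 members.

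Differences near 0 changed sign. For Nr0b2 in homozygous against wild-type males, limma-voom gave 0.013, library size alone 0.037, log2(FPKM + 1) 0.072, log2(FPKM + 0.1) 0.075 and only the compared groups 0.0024. For Cyp27a1 in that comparison, library size alone gave 0.015 and both FPKM scales 0.018. Baat in heterozygous against wild-type males became 0.012 with library size alone. Slco1b2 in the female became 0.041 with library size alone and 0.051 on both FPKM scales. Leaving out 1 male, homozygous against wild-type males, gave -0.23 to 0.23 for Nr0b2, -0.17 to 0.021 for Cyp27a1 and -0.099 to 0.14 for Nr1h4. Heterozygous against wild-type males it gave -0.23 to 1.01 for Cyp7b1, -0.081 to 0.16 for Slc10a1, -0.24 to 0.039 for Cyp27a1, -0.17 to 0.036 for Baat and -0.019 to 0.16 for Slco1b2. Homozygous against heterozygous males it gave -0.057 to 0.18 for Slco1b2, -0.011 to 0.33 for Abcb11 and -0.080 to 0.19 for Cyp27a1, and for Slco1b2 in the female -0.13 to 0.11. Over deviations from group means in the 9 males, r was -0.020 for Nr0b2 with Cyp8b1 and 0.024 for Nr1h4 with Nr0b2. The cause of these changes was not tested.

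The labels number the replicates alike in each genotype. Deviations from the group means had r of -0.44 to 0.205 between same-numbered males and -0.372 to 0.45 between other pairs. With 3 libraries per group these values cannot show whether same-numbered males shared a litter or day. With the replicate number as a block, 0 genes and 0 members were called with edgeR in each male comparison. In homozygous against wild-type males the block gave -0.90 for Cyp7a1, -1.62 for Cyp7b1, 0.030 for Nr0b2 and -0.0040 for Nr1h4. Each member held at least 300 expected counts in every library.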
